A study of Drosophila melanogaster with 24 samples.

Results

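The loci described here are the genes of the Drosophila X chromosome that S2 cells transcribed at a measurable level. A locus is 1 row of the deposited tables, named by 1 gene or by several genes that were counted together. Members were chosen by 2 properties, a position on X in the dm3 genome and a mean of at least 1 FPKM over the 8 groups. FPKM is the number of fragments of a transcript scaled to its length and to the mapped fragments of the group. Of 2255 X loci in the tables, 1297 met this minimum, out of 7748 loci that met it on all chromosomes and 14542 loci in the tables. Because the minimum is a measured value that selected the members, their levels are given as a description. Just inside it were CG2898, CG15203 and Gr5a, each with a mean of 1.01 FPKM, and just outside it were Sik2 with 0.992, CG42541 with 0.952 and b6 with 0.951.

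RNA was sequenced from S2 cells, an embryonic Drosophila cell line with features of blood cells and of male cells, as a cell culture model without tissue context. Cells received dsRNA against GFP, Sin3A, lid, or both Sin3A and lid for 4 days, and are called here GFP RNAi, SIN3 KD, LID KD and SIN3 KD + LID KD. Each of these groups was prepared without stress and with 8.3 mM paraquat for 24 h, which gave 8 groups of 3 biological replicates, 24 samples in all. All groups therefore carried dsRNA, and the GFP RNAi group was the control for dsRNA itself. The tables combine the 3 replicates into 1 FPKM value per group, so no spread between replicates could be computed.

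SIN3 is the scaffold of a histone deacetylase complex that contains RPD3, and dKDM5/LID is a demethylase of lysine 4 of histone H3. In Drosophila males the MSL complex (MSL1, MSL2, MSL3, the helicase MLE and the acetyltransferase MOF), together with the noncoding RNAs roX1 and roX2, binds the single X and raises its transcription through acetylation of lysine 16 of histone H4. Female cells lack MSL2 because SXL blocks its translation. Paraquat is a herbicide that generates superoxide inside cells.

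The 8 groups form a full set of combinations of 3 factors, so each locus has 4 ratios with over without Sin3A dsRNA that share no group. The Sin3A dsRNA effect of a locus is the mean of these 4 log2 ratios, with 0.1 FPKM added to each value, and was tested by limma in a model of 3 additive factors (the dsRNAs against Sin3A and lid, and paraquat). The error in this test (4 residual degrees of freedom) is the departure of the group values from additivity, not the spread between cultures. Loci passed at a p-value under 0.05 after Benjamini-Hochberg adjustment over all 7748 loci, and "fell" or "rose" is used only of these. In lists of 4 values without Sin3A dsRNA the order is GFP RNAi, LID KD, stressed GFP RNAi and stressed LID KD. Lists with Sin3A dsRNA follow the order SIN3 KD, SIN3 KD + LID KD and the same pair under paraquat.

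Summed FPKM ranged from 749891 to 814105 between groups and between 7537 and 7764 loci reached 1 FPKM in a group. The number of reads per sample was not used here, so FPKM values carry no known depth. The lid transcript, which is not on X, was at 37.2, 39.1, 35.8 and 43.0 FPKM in the 4 groups without lid dsRNA and between 14.9 and 17.0 FPKM in the 4 groups with it (limma, log2 -1.26, adjusted p = 0.000236). The Sin3A transcript was between 62.0 and 67.9 FPKM without its dsRNA and between 58.0 and 61.7 FPKM with it (log2 -0.12, adjusted p = 0.0590). It was lower in 4 of 4 pairs and the groups did not overlap, but the difference was small and did not pass. Per the study, knockdown of Sin3A was checked separately by western blot, which showed efficient reduction of SIN3 protein. Transcript values do not measure protein. Of 5 blood cell markers 4 were above 1 FPKM, and their summed level was 259 to 530.2 FPKM without and 172 to 318 FPKM with Sin3A dsRNA. Their part in the results was not tested. Hml, a plasmatocyte marker, was under 1 FPKM in every group. Markers of follicle cells, fat body and testis all had means under 1 FPKM, as did 3 of 4 neuronal and 3 of 4 germ line markers. In RNA from whole cultures, fewer cells of a type and less RNA per cell cannot be told apart.

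X loci were lower with Sin3A dsRNA relative to the autosomes in each of the 4 pairs of groups. The median Sin3A dsRNA effect was -0.14 (log2) over the 1297 X loci, 0.03 over the 6330 loci of 2L, 2R, 3L and 3R, and -0.01 over all 7748 loci. The difference between the X and autosomal medians was -0.17 in the unstressed pair, -0.12 with lid dsRNA, -0.20 under paraquat and -0.16 with both. These medians are descriptions with no test, because X was chosen with this shift known. The medians of the 4 autosome arms lay between 0.02 and 0.04. The 75 loci of chromosome 4, a small and largely heterochromatic chromosome, had a median of -0.29, and the 8 loci of unplaced X heterochromatin, which are no members, had a median of -0.43.

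**Figure D1:**
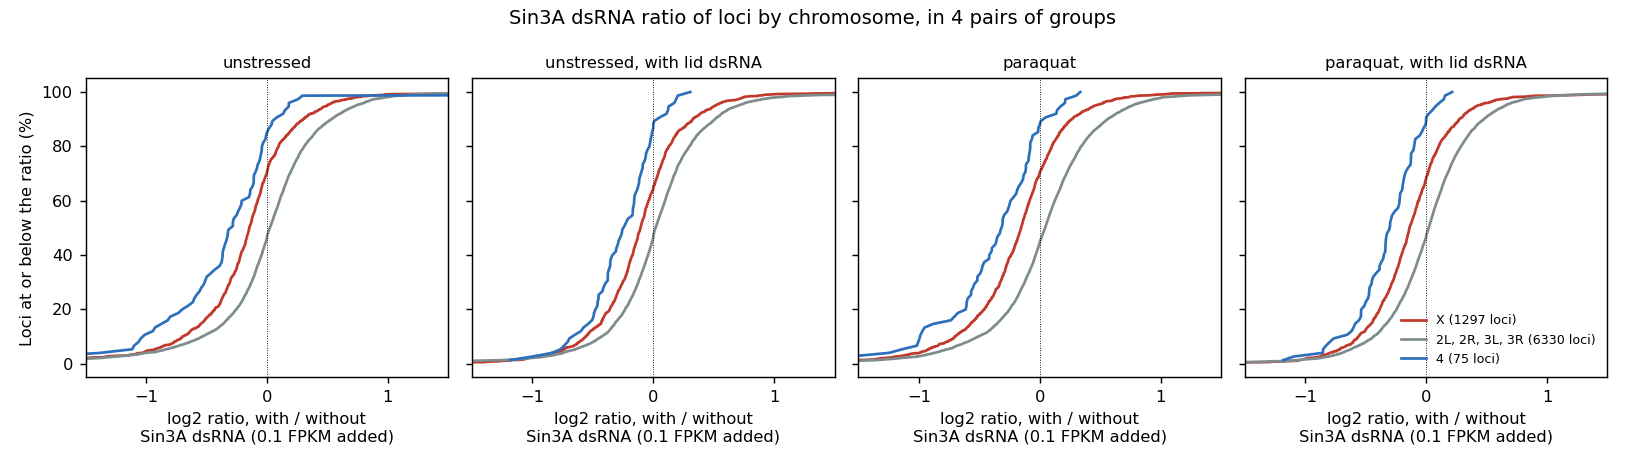
Cumulative percentage of loci (vertical axis) at or below each log2 ratio with over without Sin3A dsRNA (horizontal axis, shown from -1.5 to 1.5), for loci of X, of the 4 autosome arms and of chromosome 4, in the 4 pairs of groups. In every panel the X curve lies left of the autosomal curve over most of its length, with X medians from -0.15 to -0.11 and autosomal medians from 0.02 to 0.05.

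The displacement ran through most of the distribution. Of the X loci 69.9% had a negative Sin3A dsRNA effect, against 46.2% of the autosomal loci. X minus autosomes was -0.10 at the 5th percentile (-0.81 on X, -0.71 on autosomes), -0.17 at the 25th, -0.19 at the 75th and -0.24 at the 95th percentile (0.45 on X, 0.69 on autosomes). The gap was wider among loci that were higher with Sin3A dsRNA than among those that were lower. Leaving out the 10 X loci with the lowest effects left the X median at -0.13, and leaving out the lowest 100 left it at -0.11. The lowest 622 loci, 48.0% of the members, had to be left out before the X median reached the autosomal 0.03. A median moves by rank alone, so leaving out a few loci could not have moved it far whatever their effects.

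With Sin3A dsRNA 543 X loci fell, 41.9% of the members, against 26.4% of all loci tested, and 22.4% on the autosomes. The number of X loci that rose was 161, 12.4% of the members, against 26.1% of all loci and 29.3% on the autosomes. Most changes were small, with a median of -0.36 among the loci that fell (middle 50% from -0.57 to -0.23) and 0.34 among those that rose (middle 50% from 0.23 to 0.50). With a change over 1.4-fold also required, 178 X loci fell (13.7%, against 9.43% of all loci) and 44 rose (3.39%, against 8.35%). In 339 X loci all 4 groups with Sin3A dsRNA lay below all 4 groups without it (26.1%, against 13.6% of all loci), and in 82 they lay above them (6.32%, against 16.1%). Of changes of 2-fold or more, whether or not they passed, 38 X loci were that much lower, 2.93% against 2.42% on the autosomes, and 10 were that much higher, 0.771% against 1.72%.

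Summed levels gave a lower X share as well, a measure in which a few highly expressed loci weigh most. The X share of summed FPKM was 12.8% in GFP RNAi and 12.2% in SIN3 KD, 13.9% in LID KD and 13.3% in SIN3 KD + LID KD, 13.3% and 12.2% in the corresponding stressed pair without lid dsRNA, and 13.1% and 12.9% in the stressed pair with it. The share was lower with Sin3A dsRNA in 4 of 4 pairs, by the smallest margin in the last. That pair contained snoRNA:Or-CD10, listed at 959 FPKM in stressed LID KD and at 3183 FPKM in stressed SIN3 KD + LID KD. The same locus was listed at 1452 FPKM in GFP RNAi and at 0 in SIN3 KD. It thus narrowed the margin of the stressed pair with lid dsRNA and widened that of the unstressed pair without it. The median level of X loci that passed the 1 FPKM minimum was 21.7 FPKM, against 27.7 FPKM on the autosomes and 59.4 FPKM on chromosome 4. In single groups, medians over all loci at the minimum ran from 19.4 to 22.5 FPKM for X and from 25.9 to 28.2 FPKM for the autosomes.

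In FPKM, the largest losses were at highly expressed genes, mostly ribosomal protein genes. On average over the 4 pairs, values dropped by 10264 FPKM in all over 898 members and rose by 3456 FPKM in all over 399 members, without regard to the test. The 10 loci with the largest mean losses held 33.6% of all losses and the 100 largest held 73.0%. RpS15Aa, a protein of the small ribosomal subunit and the strongest X locus with a mean of 8780.5 FPKM, was at 9198 FPKM without and 8363 FPKM with Sin3A dsRNA on average. Its values overlapped between the groups, and its effect of -0.14 did not pass (limma, adjusted p = 0.163). RpS28b went from 4565 to 3957 FPKM, RpS19a from 2945 to 2559 FPKM and RpS10b from 1806 to 1557 FPKM. These 3 fell by small amounts, with effects of -0.21, -0.20 and -0.21 and adjusted p-values of 0.0197, 0.0158 and 0.00811. RpS28b and RpS19a passed only with the stressed pair with lid dsRNA left out among the 4 ways of leaving out a pair. Karl, which encodes a lipocalin, lost more than any of these relative to its level, from 714, 640.0, 546 and 516 FPKM without Sin3A dsRNA to 359, 310.2, 264 and 255 FPKM with it. The Karl groups did not overlap and the effect was -1.02 ± 0.0402 (limma SE, adjusted p = 0.000105). Karl and the ribosomal protein loci of this paragraph were named for their loss in FPKM, after their values were seen.

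Expression level and locus length did not remove the gap between X and autosomes. In 5 equal classes of mean FPKM, set on X and autosomal loci together, the X median was -0.31, -0.16, -0.11, -0.04 and -0.10 from the lowest to the highest class. The autosomal medians in the same classes were -0.08, 0.02, 0.03, 0.06 and 0.05. The difference was largest in the lowest class (-0.23, loci from 1.00 to 8.34 FPKM) and smallest in the fourth class (-0.10, from 35.6 to 72.6 FPKM). The share of X loci that fell was 44.4% in the lowest and 42.1% in the highest class, against 28.4% and 17.1% on the autosomes. In 5 classes of locus length, from 78.0 bases up, the difference between the medians lay between -0.19 and -0.13. The 240 X loci of the shortest class had the smallest difference, and 34.6% of them fell, the lowest share among these 5 classes.

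**Figure D2:**
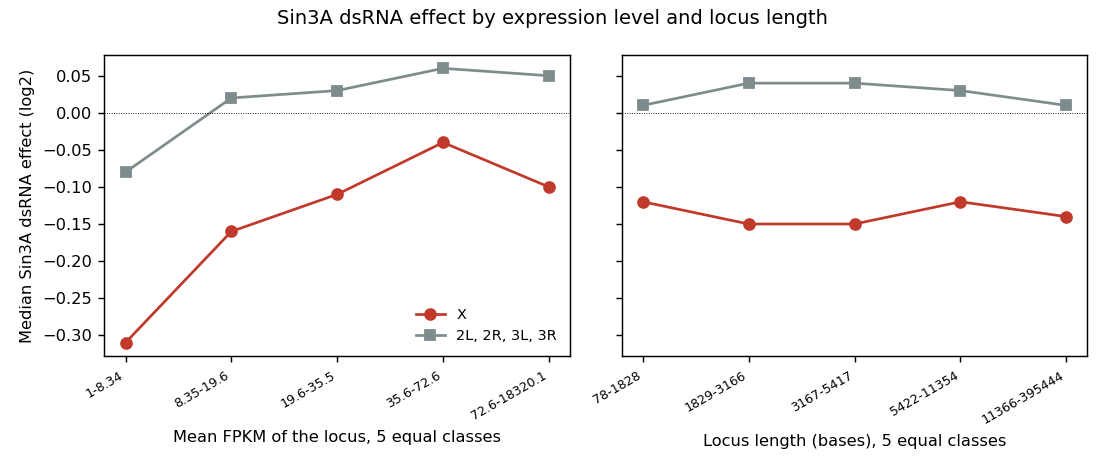
Median Sin3A dsRNA effect (log2, vertical axis) of X loci and of loci of 2L, 2R, 3L and 3R in 5 equal classes of mean FPKM (left) and of locus length in bases (right). The X median lies below the autosomal median in all 10 classes, and both curves are lowest in the class with the lowest FPKM.

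By gene type, 1240 members were protein coding, 55 were noncoding and 2 were not matched to the annotation. The protein-coding loci had a median effect of -0.14, with 531 that fell and 158 that rose. The noncoding loci had a median of -0.19, with 12 of 55 that fell, a smaller share than over all X loci, and 2 that rose. Over all X loci 41.9% fell and 12.4% rose, and over all loci tested 26.4% fell and 26.1% rose. Of the members, 23 were listed at 0 FPKM in at least 1 group, and all of these were named as microRNAs or snoRNAs. Zero values in such short transcripts can be failed estimates, and their fitted effects depend on the 0.1 FPKM added. One of them, mir-978, was named after its values were seen and met the test (limma, adjusted p = 0.0206). It was listed at 0 in the 4 groups without Sin3A dsRNA and also in stressed SIN3 KD, against 87.8, 57.8 and 86.4 FPKM in the other 3. Only through these 3 did mir-978 reach the minimum mean, so its p-value is no independent evidence.

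The lower values extended along the whole chromosome. In windows of 1 Mb by the midpoint of the locus, counted from the telomere, 22 windows held at least 20 loci and all 22 had a negative median, between -0.23 and -0.07. Of 93 autosomal windows of that size, 30 had a negative median, and their medians lay between -0.19 and 0.17. Only 4 autosomal windows were below the highest X window, and 1 was below the median of all X loci. The window counts that follow stand beside shares over all X loci of 41.9% that fell and 12.4% that rose. Over all loci tested these shares were 26.4% and 26.1%. The lowest X window was the fifth, from 4 to 5 Mb, in which 23 of 38 loci fell and 8 rose. Both of these shares were above those over all X loci. The highest was the window from 14 to 15 Mb, in which 13 of 40 loci fell and 5 rose. The most loci that fell were in the window from 16 to 17 Mb, with 44 of 82, and the most that rose were in the window from 13 to 14 Mb, with 16 of 69. The window next to the centromere held 7 loci, of which 4 fell and none rose, with a median of -0.31.

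**Figure D3:**
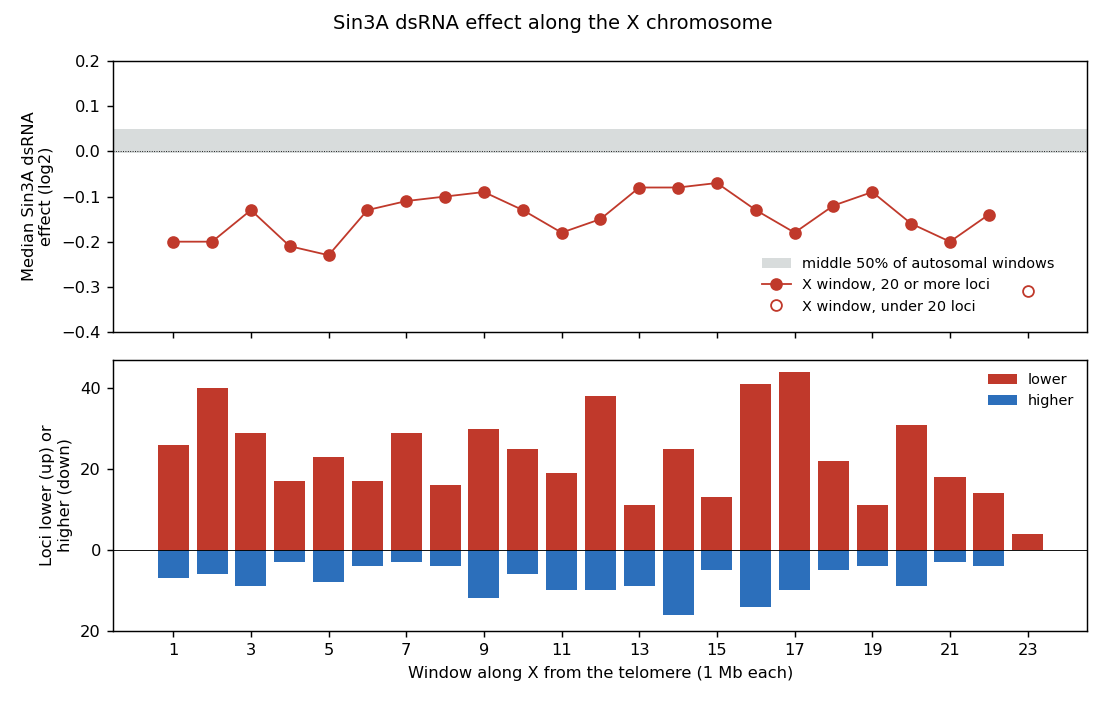
Sin3A dsRNA effect in windows of 1 Mb along X, numbered from the telomere (horizontal axis). The upper panel shows the median log2 effect of each X window, all below 0, and the grey band holds the middle 50% of autosomal windows. The lower panel shows the number of loci that fell (upward bars, up to 44) and rose (downward bars, up to 16) in each window.

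Neighbouring loci resembled each other only weakly. Over the 1296 pairs of adjacent X loci, Spearman's rho between their effects was 0.17, and it was 0.15 over 6326 adjacent pairs on the autosomes. The values are descriptions, since neighbours come from the same libraries and 247 of the X pairs overlapped. Without overlapping pairs rho was 0.18 on X and 0.16 on the autosomes. The longest run of adjacent X loci that fell had 7 members (dm3 X:4525085-4580904), CG12179, pon, mRpL30, Torsin, Cbp80, rap and Pp2C1, with effects between -0.59 and -0.23. The run was shorter under some alternatives, since mRpL30 (-0.24) and rap (-0.21) no longer passed with groups scaled to the same sum, and mRpL30 also missed with any of 3 pairs left out (-0.28 to -0.19). Its members have unlike roles, as pon encodes an adaptor of the cell fate determinant Numb, mRpL30 a mitochondrial ribosomal protein, Cbp80 a subunit of the nuclear cap binding complex and rap an activator of the anaphase-promoting complex.

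The 10 largest falls among X loci with 1 gene name and the same direction in all 4 ratios had effects between -2.03 and -1.31. Selection by size and direction favours groups that do not overlap, here and among the largest rises below. CG5321 (X:14573613-14574964) was at 2.64, 1.10, 2.09 and 1.03 FPKM without and 0.577, 0.249, 0.287 and 0.221 FPKM with Sin3A dsRNA. The groups did not overlap, and the effect was -2.03 ± 0.258 (adjusted p = 0.00107). CG5321 reached the minimum of 1 FPKM only through the groups without Sin3A dsRNA, so a difference in this direction was favoured by its selection, and its p-value is no independent evidence. CG4829 (X:16705732-16720527) was at 43.9, 13.1, 17.2 and 6.03 FPKM without and 6.59, 5.74, 2.83 and 2.60 FPKM with Sin3A dsRNA. Its effect was -1.91 ± 0.293 (adjusted p = 0.00221), but 1 group without Sin3A dsRNA, stressed LID KD, lay within the range of the groups with it. CG4829 also fell with paraquat (log2 -1.19, adjusted p = 0.0217), a call lost with any 1 pair left out (-1.27 to -1.11).

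CG9691 (X:9778475-9779079) was at 10.0, 11.4, 8.96 and 7.50 FPKM without and 3.05, 4.94, 2.48 and 2.64 FPKM with Sin3A dsRNA (-1.54 ± 0.146, adjusted p = 0.000376). The groups of CG9691 did not overlap. The gene easily shocked (eas, X:16172360-16179651), which encodes an ethanolamine kinase of phospholipid synthesis, was at 27.9, 30.7, 31.0 and 36.5 FPKM without and 9.30, 13.3, 11.4 and 16.2 FPKM with Sin3A dsRNA. Its values were clearly apart, with an effect of -1.34 ± 0.0739 (adjusted p = 0.000118). CG2709 (X:2620740-2621522), now vilya, a gene known for a role in meiotic recombination, was at 1.58, 1.68, 1.85 and 2.09 FPKM without and 0.504, 0.982, 0.775 and 0.489 FPKM with it (-1.31 ± 0.264, adjusted p = 0.00669). It too reached the minimum only through the groups where it was high, as did CG34336 and bou below and, with Sin3A dsRNA as the high side, CG11756, and their p-values carry the same limit.

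A group of 4 loci in a row between X:3705684 and X:3774329 fell together. The gene echinus (ec, X:3705684-3751656), known for pruning of cells in the developing eye, was at 8.48, 10.2, 10.3 and 11.2 FPKM without and 1.98, 4.24, 4.07 and 6.41 FPKM with Sin3A dsRNA (-1.36 ± 0.191, adjusted p = 0.00157). The oligopeptide transporter gene yin (X:3756996-3762359) was at 46.6, 69.7, 40.5 and 60.0 FPKM without and 23.1, 34.6, 20.3 and 29.9 FPKM with it. This was the most even fall of the group, with an effect of -1.0 ± 0.0297 (adjusted p = 6.65e-05). CG34336 (X:3763020-3763797), which current RefSeq annotation includes in yin, was at 5.36, 2.71, 2.93 and 1.96 FPKM without and 0.446, 0.999, 0.789 and 1.51 FPKM with Sin3A dsRNA (-1.70 ± 0.437, adjusted p = 0.0173). CG34336 no longer passed when the unstressed pair with lid dsRNA or the stressed pair without it was left out, with effects of -1.82 and -1.68. CG2930 (X:3766454-3774329) was at 26.2, 31.9, 27.0 and 34.9 FPKM without and 6.51, 12.7, 10.3 and 19.4 FPKM with it (-1.38 ± 0.164, adjusted p = 0.000799). In all 4 loci the groups did not overlap. The next member, VhaAC39-1, a subunit gene of the vacuolar proton pump, stood at 154 to 181 FPKM without and 155 to 171 FPKM with Sin3A dsRNA and did not pass (-0.05, adjusted p = 0.398). The noncoding roX1 lies between ec and yin and was no member, at 0.0239 to 0.148 FPKM.

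Other falls also lay beside each other. IP3K2 (X:13212685-13223350), an inositol trisphosphate kinase gene, was at 13.8, 9.50, 15.0 and 10.1 FPKM without and 4.47, 3.58, 4.98 and 4.07 FPKM with Sin3A dsRNA (-1.46 ± 0.0685, adjusted p = 0.000109). The groups of IP3K2 did not overlap. CG15745 (X:13198915-13201415), which RefSeq now places in the same gene, was at 18.7, 21.0, 15.3 and 12.2 FPKM without and 6.80, 7.93, 6.19 and 5.97 FPKM with it (-1.29 ± 0.107, adjusted p = 0.000255). These are therefore 2 readings of 1 gene. Next to them, the peroxiredoxin gene Jafrac1 stood at 1369.9 to 1800.1 FPKM without and 1372 to 1900.5 FPKM with Sin3A dsRNA and did not pass (0.10, adjusted p = 0.288).

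The genes boudin, ogre and Inx2 lie in another stretch, which like those above was chosen around falls already seen. The gene boudin (bou, in the interval X:6867651-6885351), which encodes a small membrane protein needed for septate junctions, was at 2.96, 1.71, 2.89 and 1.81 FPKM without and 1.19, 0.871, 0.812 and 0.527 FPKM with Sin3A dsRNA (-1.37 ± 0.181, adjusted p = 0.00122). In the same interval ogre, an innexin of gap junctions, fell by 0.61 (adjusted p = 0.0109) from levels near the minimum. Inx2 (in X:6885645-6905178), another innexin gene, was at 12.8, 10.1, 13.3 and 10.8 FPKM without and 4.50, 4.73, 6.21 and 6.44 FPKM with it (-1.10 ± 0.112, adjusted p = 0.000466). The values of bou, ogre and Inx2 did not overlap between the groups. Other loci of the stretch were mixed. CG4586 fell by 0.66, CG3040 did not pass (-0.11), and CG32732 rose by 0.18. Inx7 and cm, counted as 1 locus in the interval of Inx2, fell by 0.15, a call lost with groups scaled to the same sum (-0.12). The adjacent locus of CG32736 and CG42308 rose by 0.37, and CG3032 (-0.20) and CG4593 (-0.17) did not pass. Intervals shared by several genes are as the tables give them, and the effects of genes in 1 interval may share reads.

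**Figure D4:**
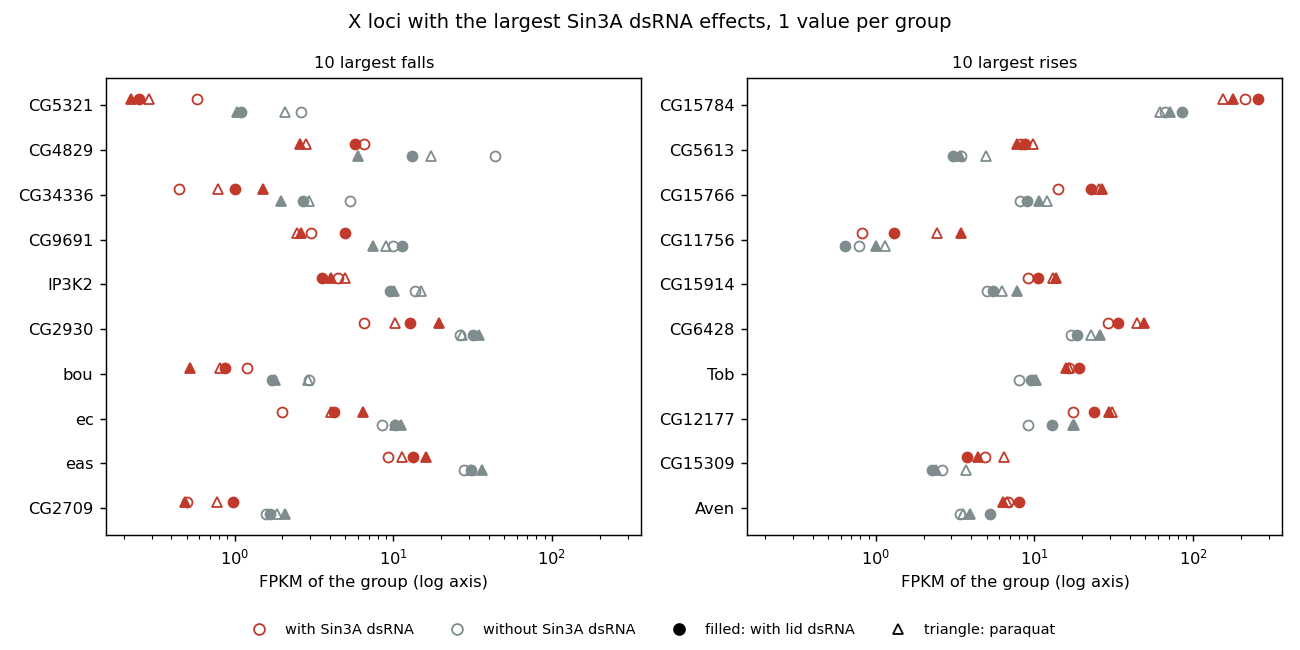
FPKM (log axis) in each of the 8 groups for the 10 X loci with the largest falls (left) and the 10 with the largest rises (right) with Sin3A dsRNA. Red marks groups with and grey marks groups without Sin3A dsRNA, filled symbols mark lid dsRNA and triangles mark paraquat. Red and grey ranges are apart for all falls but CG4829, and for 8 of 10 rises, with CG11756 and CG12177 overlapping. Selection of these loci by size and direction favoured ranges that are apart. Over all loci tested, red lay wholly below grey in 13.6% and wholly above it in 16.1%.

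The 10 largest rises had effects between 0.79 and 1.47. CG15784 (X:5324713-5326494) was at 66.9, 85.4, 61.6 and 71.5 FPKM without and 212, 257, 155 and 178 FPKM with Sin3A dsRNA. It had the largest rise of the ranked loci, 1.47 ± 0.0705 (adjusted p = 0.000109), with no overlap. CG5613 (X:17316353-17338027), now ENGase, an enzyme that cleaves sugar chains from glycoproteins, was at 3.42, 3.07, 4.97 and 3.38 FPKM without and 8.17, 8.74, 9.83 and 7.73 FPKM with it (1.21 ± 0.120, adjusted p = 0.000424). CG15766 (X:5708897-5709853), now AgmNAT, an agmatine acetyltransferase gene, was at 8.15, 8.99, 12.0 and 10.7 FPKM without and 14.1, 22.6, 25.5 and 26.6 FPKM with it (1.12 ± 0.130, adjusted p = 0.000733). Both sets of groups were apart.

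Tob (X:15969396-15985528), of the Tob/BTG family of growth inhibitors, was at 8.01, 9.58, 9.94 and 10.3 FPKM without and 16.6, 19.0, 16.6 and 15.8 FPKM with Sin3A dsRNA (0.84 ± 0.0915, adjusted p = 0.000575). Aven (X:12518325-12523631), known in human cells as an inhibitor of cell death, was at 3.41, 5.21, 3.56 and 3.91 FPKM without and 6.85, 7.94, 6.74 and 6.33 FPKM with it (0.79 ± 0.111, adjusted p = 0.00153). Tob and Aven had no overlap between groups. CG6428 rose from 17.0 to 26.0 FPKM without to 29.0 to 48.7 FPKM with Sin3A dsRNA (0.88 ± 0.0418, adjusted p = 0.000109), and CG15914 by 0.90 (adjusted p = 0.000141). CG15309, now Ypel, a yippee-like gene, rose by 0.81 (adjusted p = 0.000585). CG12177 rose by 0.83 (adjusted p = 0.00111), although 2 of its groups without Sin3A dsRNA, at 17.6 and 17.8 FPKM, were above the 17.4 FPKM of SIN3 KD. CG11756 was at 0.779, 0.642, 1.14 and 0.996 FPKM without and 0.817, 1.30, 2.44 and 3.44 FPKM with it (0.92 ± 0.269, adjusted p = 0.0270). Its groups overlapped and it no longer passed without any 1 of 3 pairs (0.67 to 0.93).

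Genes of dosage compensation moved in opposite directions. On X, roX2 (X:11473089-11474465) was at 81.5, 82.3, 106 and 109.9 FPKM without and 47.6, 56.0, 79.3 and 88.5 FPKM with Sin3A dsRNA. It was lower in 4 of 4 pairs and fell by 0.51 ± 0.0741 (adjusted p = 0.00174), while its ranges overlapped because paraquat groups were higher. The acetyltransferase gene mof (X:5767868-5770884) was at 13.3, 12.3, 11.0 and 10.3 FPKM without and 10.3, 9.14, 7.75 and 7.54 FPKM with it, and fell by 0.44 ± 0.0448 (adjusted p = 0.000482). Sxl (X:6968583-6992089), the switch gene of female development, was at 42.4, 39.8, 50.3 and 48.9 FPKM without and 57.0, 56.3, 70.5 and 66.9 FPKM with it. The Sxl groups did not overlap and the effect was 0.47 ± 0.0309 (limma, adjusted p = 0.000154). This value takes all Sxl transcripts together, so it does not separate their forms and does not measure SXL protein. Off X, msl-2 was at 25.2 to 28.0 FPKM without and 29.8 to 34.0 FPKM with Sin3A dsRNA and rose by 0.30 (adjusted p = 0.00277), msl-3 fell by 0.26 (adjusted p = 0.00685) and CG1832, now Clamp, a zinc finger gene whose protein recruits the MSL complex, fell by 0.21 (adjusted p = 0.0139). No change passed for msl-1 (0.01, adjusted p = 0.850), Top2 (-0.17, adjusted p = 0.0668), mle (0.04, adjusted p = 0.478) or JIL-1, which encodes a kinase of histone H3 found on the male X (0.04, adjusted p = 0.600). MOF, roX2 and MSL2 are activators of the male X, and their part in the values of other X loci was not tested.

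Among 26 X loci of a list of chromatin and transcription genes, 15 fell and 1 rose (41.9% of all X loci and 26.4% of all loci fell), with a median of -0.19 against -0.14 for all X loci and -0.01 for all loci tested. The list was chosen, like the others here, with earlier results of these data known. Smr, a corepressor of nuclear receptors, was at 126, 104, 107 and 84.3 FPKM without and 81.0, 81.4, 69.2 and 67.4 FPKM with Sin3A dsRNA (-0.48 ± 0.0661, adjusted p = 0.00139). Its groups did not overlap. The larger falls also included lin-52 of the dREAM repressor complex (-0.64, adjusted p = 0.00109) and the Mediator subunit MED18 (-0.47, adjusted p = 0.000216). The coactivator nej (CBP) fell by 0.24 and the bromodomain gene fs(1)h by 0.14, the latter not without the unstressed pair with lid dsRNA (-0.14) or with groups scaled to the same sum (-0.11). Top1, a topoisomerase gene, was the 1 locus of the list that rose (0.18, adjusted p = 0.0294), and no longer passed without the stressed pair with lid dsRNA (0.17) or with groups centred on the autosomal median (0.12). The large subunit gene of RNA polymerase II, RpII215, did not pass (0.07, adjusted p = 0.120).

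Of 24 X loci of signalling and cell polarity 17 fell and 1 rose, with a median of -0.21, where 41.9% of all X loci and 26.4% of all loci fell. Its members N, Inx2 and sog had the largest single falls in the lists. Notch (N, X:3028905-3066295), the receptor of a pathway of cell fate decisions, was at 7.27, 4.37, 6.22 and 3.49 FPKM without and 2.97, 2.10, 2.44 and 1.87 FPKM with Sin3A dsRNA. The groups were apart, and N fell by 1.12 ± 0.0984 (adjusted p = 0.000299). The BMP antagonist gene sog (X:15497396-15527467) was at 8.45, 6.78, 8.81 and 6.15 FPKM without and 3.31, 3.75, 3.41 and 3.38 FPKM with it (-1.09 ± 0.117, adjusted p = 0.000565). Moesin (Moe), which links actin to the cell membrane, fell from 616 to 712 FPKM without to 489 to 508 FPKM with Sin3A dsRNA (-0.41, adjusted p = 0.000411). The GTPase gene Cdc42 fell by 0.36 and the kinase genes hep of the JNK pathway, Tao and hop (the JAK kinase) fell by 0.35, 0.28 and 0.21. Ilp6, an insulin-like peptide gene, was the exception, with 0.12 (adjusted p = 0.0427), and its rise was lost with 1 pair left out, whichever pair it was.

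Genes of the cell cycle and of DNA replication and repair gave 15 loci that fell and 1 that rose among 21, with a median of -0.26, beside the same 41.9% and 26.4%. Replication helicase subunits Mcm3 and Mcm6 fell by 0.53 (adjusted p = 0.00343) and 0.44 (adjusted p = 0.00221). The kinesin gene Klp3A was at 51.4, 50.1, 32.2 and 29.1 FPKM without and 35.0, 34.1, 18.5 and 17.7 FPKM with Sin3A dsRNA (-0.65 ± 0.0519, adjusted p = 0.000225). Both Sin3A dsRNA and paraquat separated the Klp3A groups, so the ranges overlapped. The gene swallow (swa), known for bicoid mRNA localization in the oocyte, fell by 0.83 (adjusted p = 0.000127), and the genes l(1)dd4 and Grip84 of the gamma-tubulin ring fell by 0.48 and 0.30. The repair nuclease gene mei-9 rose by 0.24 (adjusted p = 0.00849), a call lost without the unstressed pair with lid dsRNA (0.23) or the stressed pair without it (0.25). Under paraquat 12 of the 21 fell and 2 rose, where 17.4% of all X loci and 21.6% of all loci fell.

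Among metabolic and redox genes more members rose than fell. Of 19 X loci 9 rose, 4 fell and 6 did not pass, where 12.4% of all X loci and 26.1% of all loci rose, and the list median was 0.22. Ahcy13, adenosylhomocysteinase of the methionine cycle, was at 154, 236, 179 and 213 FPKM without and 223, 352, 272 and 317 FPKM with Sin3A dsRNA (0.57 ± 0.0849, adjusted p = 0.00197). It was higher in 4 of 4 pairs, with overlapping ranges because the LID KD groups were higher than GFP RNAi. Gs2, glutamine synthetase, was at 54.6, 75.7, 65.1 and 65.0 FPKM without and 106, 127, 81.3 and 74.3 FPKM with it (0.55 ± 0.152, adjusted p = 0.0220), with larger differences in the unstressed pairs. It no longer passed without the unstressed pair with lid dsRNA (0.49). Sptr, sepiapterin reductase, rose by 0.47 (adjusted p = 0.000491), the glutathione transferase gene GstT4 by 0.41 (adjusted p = 0.00161) and Gclc, the catalytic subunit of the first enzyme of glutathione synthesis, by 0.38 (adjusted p = 0.00132). The adenine nucleotide carriers Ant2 and sesB, counted as 1 locus, rose by 0.22 (adjusted p = 0.00754). Among the 4 that fell, the locus of CG32795 and white fell by 0.58 (adjusted p = 0.00209) and that of CG7024 and l(1)G0334, which encodes a subunit of pyruvate dehydrogenase, by 0.19 (adjusted p = 0.00435). Zw, glucose-6-phosphate dehydrogenase, did not pass (0.06).

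Few cytosolic ribosomal protein loci passed. Of 14 on X 3 fell and none rose, with a median of -0.12. For this and the next 2 lists, 41.9% of all X loci fell and 12.4% rose. Over all loci tested 26.4% fell and 26.1% rose. Of 11 mitochondrial ribosomal protein loci 4 rose and 2 fell, with a median of 0.05. The largest of these rises was mRpS25, at 48.5, 57.6, 42.7 and 52.3 FPKM without and 73.8, 87.4, 61.6 and 68.6 FPKM with Sin3A dsRNA (0.53 ± 0.0448, adjusted p = 0.000269), with no overlap. Of 8 loci of protein folding and turnover, measured against the same shares, 2 fell and 1 rose, the chaperone gene Hsc70-3, by 0.17 (adjusted p = 0.0315), with a list median of -0.05. The Hsc70-3 call was lost with no filter on low values (0.17) and with groups centred on the autosomal median (0.11). The difference between these lists was not tested.

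**Figure D5:**
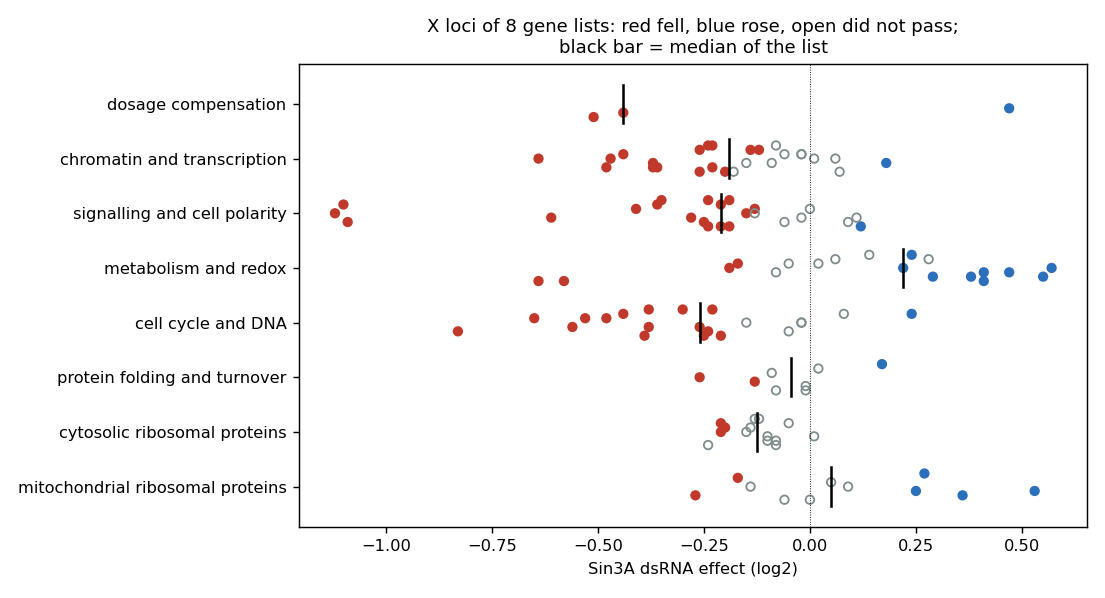
Sin3A dsRNA effect (log2, horizontal axis) of every X locus in 8 gene lists (rows). Red points fell, blue points rose, open points did not pass and the black bar is the list median, which runs from -0.44 for 3 dosage compensation loci to 0.22 for 19 metabolic and redox loci.

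One X gene outside these lists is a marker of another cell type. The neuronal RNA-binding protein gene elav (X) was at 3.22 to 3.63 FPKM without and 4.83 to 5.03 FPKM with Sin3A dsRNA and rose by 0.50 (adjusted p = 0.00133). The other 3 neuronal markers, Syt1, brp and n-syb, were at most 0.194 FPKM in every group.

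The lid dsRNA effect on X was smaller and in the other direction. The X median was 0.06 and the autosomal median 0.00, and the difference between them was 0.09 and 0.15 in the unstressed pairs and -0.02 and 0.03 in the stressed pairs. In all 22 X windows of at least 20 loci the lid median was above 0, between 0.02 and 0.13, as it was in 42 of 93 autosomal windows. With lid dsRNA 51 X loci rose (3.93%, against 2.48% of all loci) and 12 fell (0.925%, against 2.07%). With any 1 pair of groups left out, no X locus rose and at most 1 fell. Without a pair, the lid effect is estimated only from unstressed or only from stressed groups. These counts are thus not of the same effect as over all 8 groups. Among those that rose, CG32626, now AMPdeam (AMP deaminase), was at 121, 119, 120.5 and 156 FPKM in the groups without lid dsRNA (GFP RNAi, SIN3 KD and both with paraquat) and at 168, 194, 184 and 228 FPKM in the matching groups with it (0.58 ± 0.0661, adjusted p = 0.0169). The transporter gene yin rose by 0.57 with lid dsRNA (adjusted p = 0.00163) and fell with Sin3A dsRNA. N fell with lid dsRNA as well, by 0.60 (adjusted p = 0.0320), and so did the adjacent CG18508, by 0.66 (adjusted p = 0.0404), and CG3038 near the telomere, by 0.79 (adjusted p = 0.0169).

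Among the 543 X loci that fell with Sin3A dsRNA, 12 rose and 7 fell with lid dsRNA, and their median lid effect was 0.02. Among the 161 X loci that rose with Sin3A dsRNA, 25 rose and 2 fell with lid dsRNA, with a median of 0.14. Among the 593 X loci that did neither, 14 rose and 3 fell with lid dsRNA, with a median of 0.09. The 2 effects are estimated from the same 8 groups, and no test was made between them. These counts were not made over loci of all chromosomes, so they cannot be read as particular to X.

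Paraquat changed X loci in both directions, and the offset of X from the autosomes had opposite signs without and with lid dsRNA. The X median was -0.01 and the autosomal median -0.02. Their difference was 0.08 and 0.06 in the pairs of GFP RNAi and SIN3 KD. In the pairs of LID KD and SIN3 KD + LID KD it was -0.03 and -0.06, so these offsets largely cancelled in the mean. With paraquat 226 X loci fell (17.4%, against 21.6% of all loci) and 164 rose (12.6%, against 15.2%). Corp, known as a target of p53, was at 2.17, 1.65, 2.08 and 2.07 FPKM in the unstressed groups (GFP RNAi, SIN3 KD, LID KD and both) and at 4.20, 3.58, 4.04 and 3.38 FPKM under paraquat (0.90 ± 0.102, adjusted p = 0.00206). The spindle gene mei-38 was at 17.9, 14.4, 17.0 and 10.9 FPKM unstressed and 10.4, 6.23, 9.68 and 5.66 FPKM under paraquat (-0.93 ± 0.0831, adjusted p = 0.000966). The stressed and unstressed values of both genes did not overlap. Corp no longer passed without the stressed pair without lid dsRNA (0.80). Leaving out any such pair leaves the paraquat effect estimated only with or only without lid dsRNA. Fcp3C rose by 1.32 (adjusted p = 0.00589) from under 1 FPKM unstressed to between 1.71 and 1.91 FPKM, and CG12702 fell by 0.97 (adjusted p = 0.000885). Fcp3C no longer passed without either of the stressed pairs (1.53 and 1.12), and it reached the minimum only through the stressed groups, so its rise was favoured by its selection. Of the 543 X loci that fell with Sin3A dsRNA, 167 also fell and 49 rose with paraquat. Of the 161 that rose, 47 also rose and 11 fell. Of the 593 X loci that did neither, 48 fell and 68 rose with paraquat. Matching counts over loci of all chromosomes were not made, so this overlap cannot be read as particular to X.

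Whether the Sin3A dsRNA effect itself depended on lid dsRNA or paraquat was tested by an added interaction term. The term with lid passed for 2 X loci, against 0.0645% of all loci tested (5 of 7748), and 53 X loci had an unadjusted p under 0.05 in limma (4.09% of the members, 3.96% of all loci). The 2 loci, mir-4954 and snoRNA:Psi28S-1192b, were short transcripts listed at 0 FPKM in several groups. Both reached the minimum mean only through the groups where they were high, so their p-values are no independent evidence. The term with paraquat passed for no X locus and for 0% of all loci, with 42 X loci at an unadjusted p under 0.05 (3.24% of the members, 4.04% of all loci). With 3 residual degrees of freedom these tests detect only large departures.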

How the data were processed

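S2 cells in 8 groups of 3 biological replicates were analysed, grouped by the dsRNA and paraquat named in their labels. Per the study's methods, the authors sequenced paired reads of 50 bases, mapped them to dm3 by TopHat with Bowtie, and estimated expression by Cufflinks and Cuffdiff, with versions not given in the sources used here. They deposited 7 tables of FPKM, 1 value per group and locus that combines 3 replicates, each against unstressed GFP RNAi. The GFP RNAi values were identical in all 7 tables. The tables also hold log2 ratios, fold changes, test statistics and p-values of the authors' own comparisons, which were not used. Depth per sample is not known from FPKM. Whether counting used strand is not given in the sources used here, so overlapping genes may share reads.

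Values were joined by locus, 0.1 FPKM was added, and 7748 loci with a mean of at least 1 FPKM were fitted with limma 3.58.1 in R 4.3.3 (eBayes with trend), as a sum of 3 factors (the dsRNAs against Sin3A and lid, and paraquat), or with 1 added interaction term. P-values were adjusted by Benjamini-Hochberg over all these loci, with 0.05 as threshold. The procedure was run on simulated data with additive groups, independent noise and 200 changed loci. That run does not cover departures from additivity or shifts of many loci at once. Locus starts were read as 0-based, because lengths then equalled those in a dm6 annotation for 4161 of 10884 loci matched by symbol, against 71 as 1-based, and are printed 1-based on dm3. Current names and gene types come from Ensembl and RefSeq annotations of dm6, with no coordinates of that build. Named loci are the 10 largest rises and 10 largest falls with Sin3A dsRNA among loci that passed, moved the same way in all 4 ratios and hold 1 gene name, 4 and 4 likewise for lid and paraquat, X loci of 8 gene lists, the 5 highest loci, loci at the minimum, loci with an interaction, and loci in the extreme windows. Not all loci the rule allows are named. Members and lists were chosen with earlier results of these data known. Chromosome medians, windows, classes and lists were described without a test. Promoter sequence was not used here. Alternatives covered the pseudocount, filters, scaling, leaving out a pair of groups, the model and the threshold. Python 3.11.15, pandas 2.3.3 and matplotlib 3.10.9 were used.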

Additional observations from a re-analysis of the deposited data

Results flagged for a closer look

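The interaction term of Sin3A dsRNA with lid dsRNA passed at 2 X loci (limma), both listed at 0 FPKM in several groups. For mir-4954, a microRNA gene in the interval X:1918789-1936344, the term was -10.12 ± 0.598 (adjusted p = 0.0111). It was at 109.5 FPKM in SIN3 KD and 112 FPKM in stressed SIN3 KD and was listed at 0 in the other 6 groups. For snoRNA:Psi28S-1192b, in the interval X:17037620-17042287 that it shares with RpS5a, the term was -5.64 ± 0.305 (adjusted p = 0.00866). It was listed at 0 in both GFP RNAi groups and lay between 4.76 and 8.06 FPKM in the other 6. Both loci reached the minimum mean only through the groups where they were high, so these p-values are no independent evidence. The size of both terms depends on the 0.1 FPKM added to the zeros, and with 1 FPKM added they were -6.81 and -2.56, the second no longer past the threshold. The term of mir-4954 also missed the threshold over loci of at least 5 FPKM, with a lid x paraquat term added and without the unstressed pair with lid dsRNA (-10.12 in each). That of snoRNA:Psi28S-1192b missed it with any 1 pair of groups left out (-5.97 to -5.32).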

How the results depend on the processing

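No named X locus that passed, and not the X minus autosome difference for Sin3A dsRNA, changed direction under the alternatives run. X minus autosomes for Sin3A dsRNA was -0.11 with no filter on low values and -0.04 over loci that did not pass, a subset whose construction removes the larger effects on both. It stayed between -0.17 and -0.15 with any 1 pair of groups left out. Each pair is 1 combination of lid dsRNA and paraquat, so leaving it out changes what is estimated for these 2 factors. The lid difference was then estimated only under paraquat (0.01) or only without it (0.12). That for paraquat was estimated only with lid dsRNA (-0.05) or only without it (0.07). These ranges therefore cannot be compared with the range for Sin3A dsRNA as a measure of stability. The number of X loci that fell with Sin3A dsRNA was 459 to 531 and the number that rose 137 to 169 when a pair was left out. These counts were 178 and 44 over 1.4-fold, and 104 rose at an adjusted p under 0.01. For lid dsRNA, the number that fell was 1 with no filter, 6 with groups scaled to the same sum, 4 over 1.4-fold, 0 at 0.01 and 0 to 1 with a pair left out. The number that rose was 22, 30, 4 and 1 in the same settings, 0 with any pair left out and 122 with a lid x paraquat term added. With that term the lid effect is the effect without paraquat alone, so 122 counts another quantity. For paraquat, the number that fell was 24 over 1.4-fold, 93 at 0.01 and 88 to 158 with a pair left out, and the number that rose was 35, 54 and 35 to 138, and 97 with groups scaled to the same sum. For lid and paraquat, leaving out a pair and adding the lid x paraquat term also changed what was estimated. The cause of the other moves was not tested, beyond the stricter thresholds and fewer groups themselves. The Sin3A x lid term passed for 1 X locus with 1 FPKM added, over loci of at least 5 FPKM, with the lid x paraquat term, at 0.01 and over loci that overlap no other (an alternative chosen after seeing the data), and for 0 to 2 with a pair left out. The Sin3A x paraquat term passed for 1 with no filter and for 0 to 1 with a pair left out.

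Of 138 named loci that passed for Sin3A dsRNA, 20 no longer passed with groups scaled to the same sum, 15 with no filter, 8 with groups centred on the autosomal median, 7 without the trend and 1 each with 1 FPKM added, with the lid x paraquat term and over the 92 loci that overlap no other, all in the same direction. With 1 pair of groups left out in turn, 73 of their 552 values no longer passed. No paired analysis was possible because the values carry no replicate number. The promoter motif search was not run, as no sequence was used here. One value per group leaves the spread between cultures unknown, and FPKM without read counts leaves the precision of low loci unknown.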
